A study of Mus musculus and Homo sapiens with 67 samples.

Results

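Oxidative phosphorylation RNA was followed in 4 expression tables, and it comes from 2 genomes: most subunits of the respiratory chain are encoded in the nucleus, and 13 are encoded in the mitochondrial DNA. The genes were chosen by symbol, ignoring case: NDUFA, NDUFB, NDUFC, NDUFS and NDUFV genes with a number, SDHA to SDHD, the UQCR genes, COX4 to COX8, the ATP5 genes and the mitochondrial ND, CO, CYB and ATP genes. Mouse tables spell the cytochrome b gene mt-Cytb, which was taken as MT-CYB. Pseudogenes (117 in the human and 10 in the mouse tables) and 2 antisense or divergent noncoding transcripts were left out, as were genes with a mean under 1 FPKM (fragments per kilobase of transcript scaled to the fragments mapped in a library). This left 92 of 60564 genes in PSN1 (79 nuclear), 94 of 60564 in SW1990 (81 nuclear), 90 of 55335 in KPC cells (77 nuclear) and 89 of 55335 in KPC tumours (76 nuclear), with all 13 mitochondrial genes in each. In all, 111 symbols were members in at least 1 table, since human and mouse annotations name several ATP synthase genes differently.

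The genes under the 1 FPKM line numbered 8 in PSN1, 6 in SW1990, 8 in KPC cells and 9 in the tumours, and were mostly tissue isoforms such as COX4I2, COX6A2, COX7B2 and COX8C. Next to the line stood UQCRHL in SW1990 at 1.01 FPKM and Cox7a1, which averaged 1.21 FPKM in KPC cells and 0.966 in the tumours, where it was left out. COX6B2 and COX7A1 were members in SW1990 and not in PSN1. All members passed the filter on low values used for the tests.

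PSN1 and SW1990 are established human pancreatic ductal adenocarcinoma lines, and KPC is the usual name of mouse pancreatic cancer cells from tumours of an engineered mouse model driven by a pancreas-directed Cre; the column names of the tumour table read KPC1199, and the labels do not say which line or clone the KPC cells were. Each table holds 4 arms: control (DMSO for cells, vehicle for mice), tazemetostat, an inhibitor of the histone methyltransferase EZH2, RMC-6236, an inhibitor of the active form of RAS proteins, and the combination of both drugs. There were 3 libraries per arm in each cell table and 4 per arm in KPC orthotopic tumours, which grow in the pancreas of host mice, 52 samples in all; 15 samples from subcutaneous tumours were not analysed here. The labels give no dose, time, strain, age or sex for these arms, and do not say that cell libraries came from separate cultures, so p-values speak only of how far these libraries scatter, which can be technical scatter.

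The values are FPKM, so read depth is unknown and levels can be compared between genes per transcript length. Mitochondrial members made up 21.3 to 21.8% of all FPKM in PSN1 control libraries, 23.4 to 24.7% in SW1990, 9.55 to 10.0% in KPC cells, while tumour controls held 9.82 to 11.6%. Nuclear members together made up 1.20 to 1.23% in PSN1 control libraries and 0.975 to 1.02% in SW1990. The strand used in counting is not given in the sources used here, and MT-ND6 lies on the strand opposite to its neighbour MT-ND5, so reads of these genes cannot be told apart with certainty; the same holds for the overlapping pairs MT-ATP6 with MT-ATP8 and MT-ND4 with MT-ND4L, and for the near-identical UQCRH and UQCRHL.

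Oxidative phosphorylation passes electrons from NADH (through complex I) and succinate (through complex II) to complex III, on through cytochrome c to complex IV, and to oxygen. Complexes I, III and IV pump protons across the inner mitochondrial membrane, and complex V, the ATP synthase, uses their return to make ATP. The mitochondrial DNA encodes core subunits of every complex except II, is transcribed from both strands as long precursors by the polymerase POLRMT with the factor TFAM, and is translated by a ribosome of its own whose proteins are all nuclear-encoded, so each complex other than II needs both genomes.

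Promoters of nuclear members were searched for 3 short motifs and are shown for 5 mouse genes: the genes Atp5g1, Atp5g2 and Atp5g3 encode the same mature c subunit of the ATP synthase and moved differently below, and Ndufa6 and Cox7a2l had some of the largest rises in KPC cells. Each run is the RefSeq promoter of GRCm38.p6, 250 bases before to 50 after the annotated start, read 5′ to 3′ on the gene's own strand (the minus strand for all 5), with capitals for the core letters bound by nuclear respiratory factor 1 (NRF1), GCATGCGC, on either strand. The windows are chr11:96075582-96075881 (Atp5g1), chr15:102670998-102671297 (Atp5g2), chr2:73911277-73911576 (Atp5g3), chr15:82354242-82354541 (Ndufa6) and chr17:83514284-83514583 (Cox7a2l).
Atp5g1: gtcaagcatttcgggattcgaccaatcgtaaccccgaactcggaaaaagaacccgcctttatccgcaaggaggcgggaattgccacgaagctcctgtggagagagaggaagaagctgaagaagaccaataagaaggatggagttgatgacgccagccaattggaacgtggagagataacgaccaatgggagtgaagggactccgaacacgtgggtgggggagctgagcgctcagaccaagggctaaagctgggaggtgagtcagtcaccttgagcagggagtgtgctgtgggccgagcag
Atp5g2: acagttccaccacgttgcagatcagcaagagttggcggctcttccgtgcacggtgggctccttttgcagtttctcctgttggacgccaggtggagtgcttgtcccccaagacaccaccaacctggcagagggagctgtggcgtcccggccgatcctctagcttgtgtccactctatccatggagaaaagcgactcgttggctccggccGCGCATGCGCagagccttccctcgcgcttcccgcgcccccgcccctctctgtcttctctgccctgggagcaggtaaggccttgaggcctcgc
Atp5g3: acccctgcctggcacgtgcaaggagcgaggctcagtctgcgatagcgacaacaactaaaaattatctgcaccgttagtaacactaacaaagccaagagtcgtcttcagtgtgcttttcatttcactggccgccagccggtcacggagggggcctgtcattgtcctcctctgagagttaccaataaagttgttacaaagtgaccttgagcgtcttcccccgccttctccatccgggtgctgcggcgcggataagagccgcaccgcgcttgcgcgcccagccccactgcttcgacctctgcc
Ndufa6: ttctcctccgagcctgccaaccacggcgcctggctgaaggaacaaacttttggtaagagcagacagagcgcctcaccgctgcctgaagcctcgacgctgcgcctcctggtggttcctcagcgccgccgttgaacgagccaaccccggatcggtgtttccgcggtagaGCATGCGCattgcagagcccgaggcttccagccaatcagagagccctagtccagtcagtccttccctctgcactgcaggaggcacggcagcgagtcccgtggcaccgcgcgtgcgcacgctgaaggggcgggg
Cox7a2l: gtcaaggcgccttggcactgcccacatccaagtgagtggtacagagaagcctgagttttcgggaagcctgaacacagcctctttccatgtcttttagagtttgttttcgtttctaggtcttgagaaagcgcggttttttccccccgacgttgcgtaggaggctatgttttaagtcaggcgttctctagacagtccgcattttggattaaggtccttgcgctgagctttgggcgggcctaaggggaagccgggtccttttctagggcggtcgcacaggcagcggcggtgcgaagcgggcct

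In these windows the NRF1 core stood in Atp5g2, where matches to the 2 strands overlap at positions 209 and 211 from the 5′ end, and in Ndufa6 at position 168, and in none of the other 3. Of 77 mouse nuclear members, 65 had a promoter in the table under their symbol; the others included Atp5a1, Atp5mpl, Cox4i1, Cox6c, Ndufa2, Ndufb9, Ndufs1, Sdhc, Uqcrb, Uqcrc2 and Uqcrq. Among the 65, 10 (15.4%) held the NRF1 core, against 824 of all 27025 genes with a promoter (3.05%). A gene was counted if any of its promoters matched. The ETS-family core CCGGAAG stood in 17 (26.2%), against 9.93% of all genes, and the YY1 core AAGATGGC in 10 (15.4%), against 3.19%, each counted on both strands. At least 1 of these 3 was found in 31 members (47.7%) and in 14.9% of all genes. The members were chosen at a mean of 1 FPKM or more, while the set of all genes was not limited to expressed genes. Whether the excess is particular to these members among expressed genes was not tested. Split by the RMC-6236 result in KPC cells, the NRF1 core stood in 4 of 19 members that rose, 0 of 15 that fell and 6 of 31 not called, the ETS core in 3, 2 and 12, and the YY1 core in 1, 2 and 7. The 19 include Cox7a1, described below. The share holding the ETS or YY1 core was largest in the members not called, and no difference between these groups was tested. A match describes letters and does not show that a factor was bound.

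With RMC-6236, the balance between the 2 genomes moved in SW1990 and KPC cells. The summed FPKM of the 13 mitochondrial genes was divided by that of the nuclear members in each library, a ratio that does not depend on how a library is scaled. In SW1990 the ratio was 24.1 ± 1.04 (SD, n = 3) in control and 32.6 ± 1.26 (n = 3) with RMC-6236, 35.5% higher, and all RMC-6236 libraries (31.4 to 33.9) lay above all controls (22.9 to 24.8). In KPC cells it was 6.88 ± 0.264 in control and 8.10 ± 0.270 with RMC-6236, 17.7% higher, again without overlap (6.64 to 7.16 against 7.81 to 8.34). In PSN1 the control and RMC-6236 libraries overlapped (17.4 to 18.2 and 17.0 to 18.0), as they did in tumours (9.32 to 10.5 and 8.94 to 10.9).

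In SW1990 the sums behind the ratio moved in opposite directions. There the mitochondrial sum was 69131 ± 3239 FPKM in control, 84001 ± 1148 with RMC-6236 and 86452 ± 1146 with the combination, while the nuclear sum was 2874 ± 66, 2578 ± 66.7 and 2378 ± 29.1. With the combination the ratio in SW1990 was 36.4 ± 0.875, and all its libraries (35.4 to 36.9) lay above those of RMC-6236 alone. In KPC cells the ratio with the combination was 7.48 ± 0.330, and all its libraries (7.10 to 7.71) lay below those of RMC-6236 alone and overlapped with control. In PSN1 it was 18.8 ± 0.498 (18.3 to 19.3), above all control and all RMC-6236 libraries. In tumours it was 10.2 ± 0.907 (n = 4) and overlapped with both. In KPC cells the mitochondrial sum was 28739 ± 1142 in control and 34705 ± 971 with RMC-6236, and the nuclear sums overlapped (4132 to 4259 and 4250 to 4304). In PSN1 the nuclear sum was 6.0% higher with RMC-6236 (3209 ± 34.8 and 3401 ± 22.7, no overlap), the mitochondrial sums overlapped (57126 ± 884 and 58908 ± 1956), and with the combination both were above control (3566 ± 32.5 and 67206 ± 1205). Unlike the ratio, sums depend on scaling and were taken only on FPKM as deposited. Under median-ratio scaling the median log2 change of PSN1 nuclear members went from 0.11 to -0.02 with RMC-6236. With the combination it went from 0.15 to 0.0080. Tumour sums overlapped between control and each drug arm for both genomes.

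**Figure D1:**
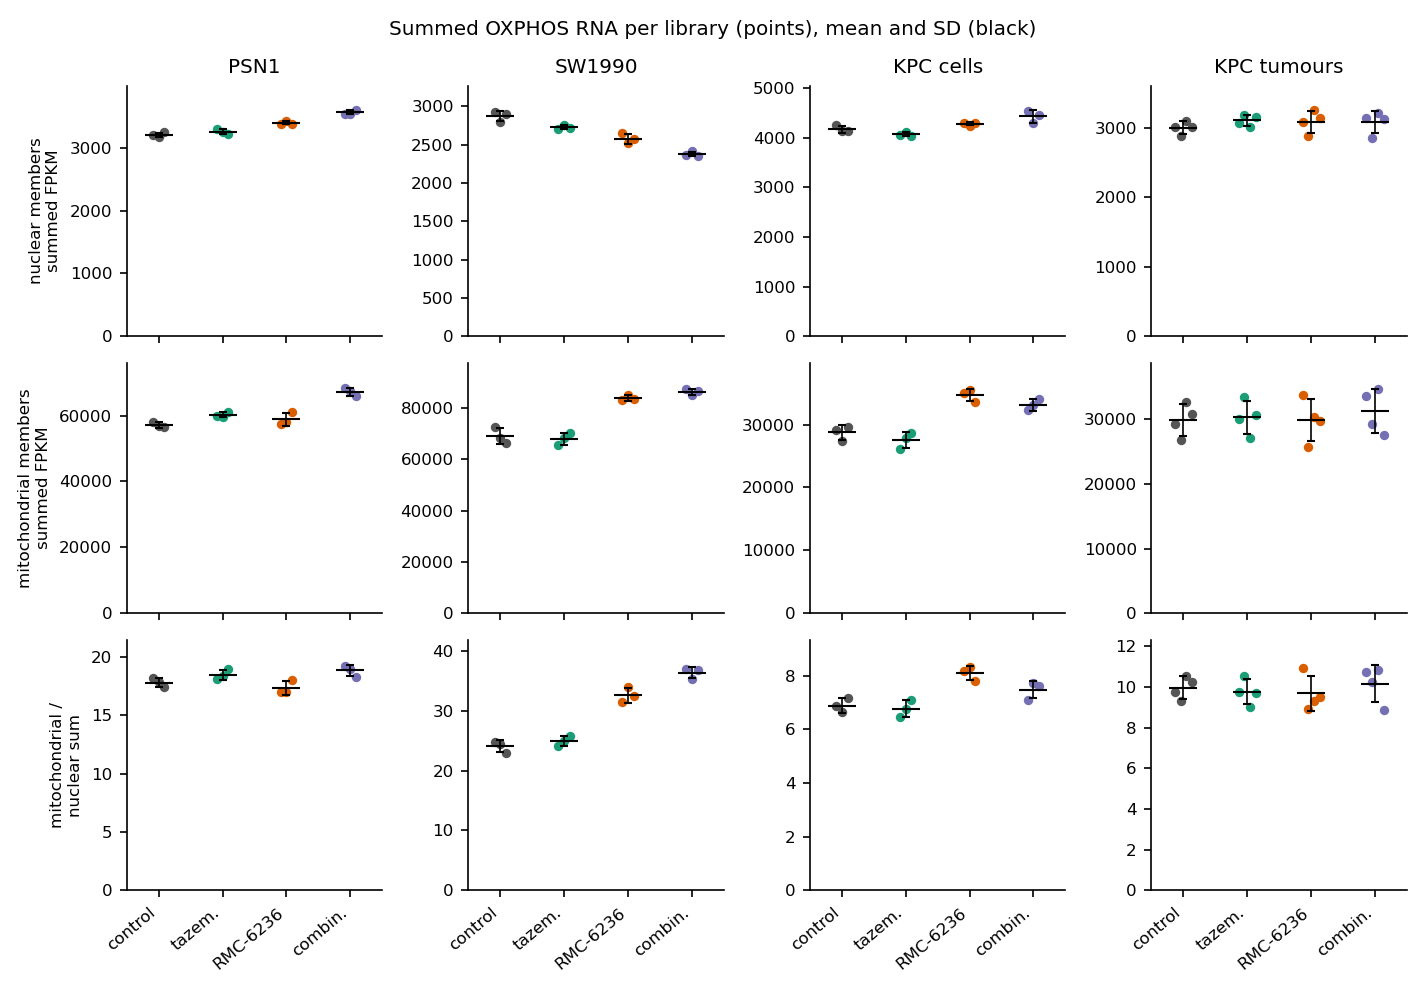
Summed FPKM of nuclear members, summed FPKM of the 13 mitochondrial genes and their ratio (rows) for each library of the 4 tables (columns), by arm; points are libraries, black marks the mean and SD. The ratio of SW1990 RMC-6236 libraries lies at 31.4 to 33.9, above the controls at 22.9 to 24.8, and tumour arms overlap.

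The mitochondrial genes were then read one by one from limma fits of all tested genes, on log2(FPKM + 1), so that fold changes of low genes are understated; a gene was called at an adjusted p under 0.05 over all genes of its table. With RMC-6236, 12 of 13 mitochondrial genes rose and 0 fell in SW1990, 11 rose and 1 fell in KPC cells, 5 rose and 4 fell in PSN1, and 2 rose and 0 fell in tumours. Over all genes tested, 30.7% were higher and 41.7% lower in SW1990 (12913 genes), 37.9% and 35.8% in KPC cells (12567), 45.8% and 34.6% in PSN1 (13358), and 20.3% and 19.2% in tumours (13545). The median log2 change of the 13 was 0.27 in SW1990, 0.31 in KPC cells, 0.06 in PSN1 and 0.09 in tumours, beside -0.06, 0.02, 0.08 and 0.01 over all genes. In PSN1 another scaling mattered: dividing by median-ratio size factors moved the median of all genes from 0.08 to -0.04 and the share of higher calls among all calls from 56.9 to 45.8%, and then 3 mitochondrial genes were higher and 6 lower, with a median of -0.09. The PSN1 median of the 13 was also 0.01 without RMC-6236 library 3.

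MT-ND5 and MT-ND6, which encode membrane subunits of complex I, rose with RMC-6236 in all 4 tables. In PSN1 MT-ND5 stood at 754, 731 and 735 FPKM in control and at 1172, 1159 and 1252 with RMC-6236, a log2 change of 0.69 ± 0.03 (SE; adjusted p = 4.5e-10). MT-ND6 stood there at 104, 117 and 100 in control and at 176, 181 and 190 (0.76 ± 0.06, adjusted p = 2.0e-07). For both genes every treated library lay above every control. In SW1990 MT-ND5 was 3157, 3105 and 2909 in control and 3458, 3702 and 3680 with RMC-6236 (0.24 ± 0.04), and MT-ND6 was 556 ± 11 and 661 ± 15.4 (0.25 ± 0.03). No treated library of either gene overlapped with control there, and the difference in rise between the lines was not tested.

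In KPC cells mt-Nd5 stood at 974, 926 and 987 in control and 1242, 1280 and 1241 with RMC-6236 (0.38 ± 0.04, adjusted p = 2.9e-06), and mt-Nd6 at 161 ± 13.5 and 219 ± 7.37 (0.44 ± 0.05). In tumours mt-Nd5 was 598, 518, 624 and 608 in control and 948, 707, 727 and 819 with RMC-6236 (0.44 ± 0.10, adjusted p = 0.0037). For mt-Nd6 the tumour values were 101, 81.7, 110 and 110 in control and 188, 129, 132 and 145 (0.55 ± 0.12, adjusted p = 0.0028). Tumour groups did not overlap for either gene, and the highest library was RMC-6236 library 1 in both. The calls of these 2 genes with RMC-6236 held in each of the 4 tables under every scaling, pseudocount and filter tried, with a replicate block and with each library left out.

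The other ND genes did not follow them in every table. MT-ND2, another complex I membrane subunit, fell in PSN1 from 3565, 3392 and 3510 in control to 2932, 2931 and 2901 with RMC-6236 (-0.26 ± 0.02, adjusted p = 1.0e-06), and rose in SW1990 from 4898 ± 303 to 6140 ± 121 (0.33 ± 0.04). MT-ND4 rose in PSN1 (0.17 ± 0.05, 0.02 and not called under median-ratio scaling), in SW1990 (0.28 ± 0.05) and, as mt-Nd4, in KPC cells. There it had the largest rise of the 13, from 1418, 1304 and 1430 to 2011, 2037 and 1948 (0.53 ± 0.05, adjusted p = 4.2e-07), with its overlapping partner mt-Nd4l at 0.48 ± 0.08. MT-ND1 was the exception in SW1990 (0.09 ± 0.05, adjusted p = 0.16), and mt-Nd1 was at -0.04 ± 0.03 in KPC cells (adjusted p = 0.34). In PSN1 MT-ND1 was at 0.11 ± 0.04 (adjusted p = 0.014), which turned to -0.04 under median-ratio scaling and lost its call without control library 3 or RMC-6236 library 2. MT-ND3 had the largest log2 change in SW1990 (0.63 ± 0.14) with widely spread treated libraries, 2147, 1440 and 1482 against 1176, 967 and 1080 in control. In KPC cells mt-Nd3 was the 1 gene lower, at -0.14 ± 0.05 (269 ± 17.0 and 244 ± 15.3), a call lost without control library 1 or 2 or RMC-6236 library 2 or 3.

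Of the remaining mitochondrial genes, MT-CYB, the catalytic heart of complex III, rose in SW1990 from 3908 ± 146 to 5141 ± 236 (0.40 ± 0.03) and, as mt-Cytb, in KPC cells from 2615 ± 60.8 to 3238 ± 140 (0.31 ± 0.04). In PSN1 it was at 0.02 ± 0.03 (adjusted p = 0.54), or -0.13 under median-ratio scaling. MT-CO1, the catalytic subunit of complex IV, rose in all 3 cell tables: from 8512 ± 271 to 10021 ± 198 in PSN1 (0.24 ± 0.03), by 0.20 ± 0.04 in SW1990, and as mt-Co1 by 0.37 ± 0.03 in KPC cells. In tumours mt-Co1 was at -0.10 ± 0.10 (adjusted p = 0.44). The ATP synthase genes MT-ATP6 and MT-ATP8, which share bases, fell in PSN1 (6281 ± 152 to 5693 ± 75.3, -0.14 ± 0.03, and 5648 ± 99.6 to 4768 ± 61.1, -0.24 ± 0.05) and rose in SW1990 (0.22 ± 0.05 and 0.27 ± 0.07). In all, 4 mitochondrial genes were called in opposite directions in the human lines, MT-ATP6, MT-ATP8, MT-ND2 and MT-ND3; MT-CO1, MT-ND4, MT-ND5 and MT-ND6 rose in both.

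**Figure D2:**
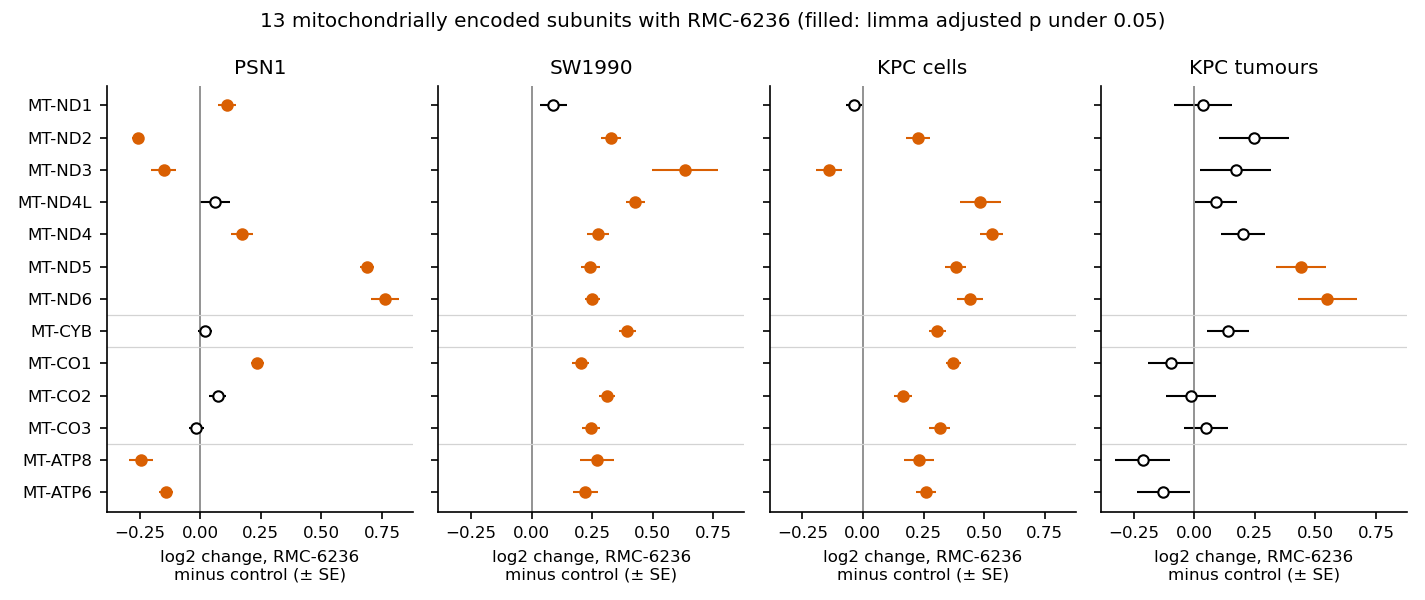
Log2 change of the 13 mitochondrial genes, RMC-6236 minus control, in each table (panels), with standard errors; filled points had an adjusted p under 0.05. MT-ND5 and MT-ND6 lie above 0 in every panel (0.24 to 0.76), while MT-ND2 is at -0.26 in PSN1 and 0.33 in SW1990; under median-ratio scaling in PSN1, MT-ND1, at 0.11 here, is at -0.04, and MT-CYB, at 0.02, is at -0.13.

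Nuclear members did not move as 1 block. With RMC-6236, 42 rose and 12 fell of 79 in PSN1, 11 rose and 38 fell of 81 in SW1990, 23 rose and 17 fell of 77 in KPC cells, and 14 rose and 5 fell of 76 in tumours. The 23 include Cox7a1, described below. Over all genes 45.8% rose and 34.6% fell in PSN1, and 30.7% and 41.7% in SW1990. In KPC cells these shares were 37.9% and 35.8%, and in tumours 20.3% and 19.2%. Counts by complex and by list with RMC-6236 stand beside the same shares and were not tested against them. Their median log2 changes were 0.11, -0.10, 0.00 and 0.08. The PSN1 split depended on scaling: under median-ratio scaling 23 were higher and 27 lower, with a median of -0.02. In tumours the count of 14 higher was between 3 and 22 with a library left out: 3, 7 and 9 without control library 1, 2 or 4, and 7, 22, 5 and 8 without RMC-6236 library 1, 2, 3 or 4. The 5 lower became 3 without control library 1 or 3.

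Complex IV, cytochrome c oxidase, had the highest median of the 5 complexes in each cell table. In PSN1 10 of its 11 nuclear genes rose (median 0.24; 7 higher and 1 lower, median 0.09, under median-ratio scaling). In KPC cells 7 rose and 2 fell of 12 (median 0.12), and in SW1990 3 rose and 2 fell of 13 (median 0.02). The KPC count and median include Cox7a1, which reached the 1 FPKM line only through arms where it is high. Over all genes 45.8% rose in PSN1, 37.9% in KPC cells and 30.7% in SW1990. The nuclear complex IV sum was 16.3% higher in PSN1 and 9.3% higher in KPC cells with RMC-6236, and 8.4% lower in SW1990, in each case without overlap. These sums use FPKM as deposited and were not recomputed under median-ratio scaling. COX8A, a small structural subunit, was called in opposite directions in the human lines: it went from 211 ± 11.3 to 244 ± 11.6 in PSN1 (0.20 ± 0.05, 0.05 and not called under median-ratio scaling) and from 377 ± 15.4 to 312 ± 8.64 in SW1990 (-0.27 ± 0.03).

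Among less common complex IV genes, COX6B2 rose in SW1990 and Cox7a2l in KPC cells. COX6B2, the testis-type form of subunit VIb, stood at 6.47, 6.15 and 6.20 FPKM in SW1990 control libraries and at 11.4, 11.7 and 12.4 with RMC-6236 (0.82 ± 0.04, adjusted p = 2.1e-09). Its common paralog COX6B1 was at 44.3 ± 4.10 and 45.9 ± 3.16 (adjusted p = 0.45). All treated COX6B2 libraries lay above the controls, and the gene averaged 0.0526 FPKM in PSN1. In KPC cells Cox7a2l, which encodes a factor that links complexes III and IV, stood at 96.3, 96.1 and 97.1 in control and 142, 131 and 140 with RMC-6236 (0.51 ± 0.03, adjusted p = 8.4e-09). The muscle-type Cox7a1 stood at 0.768, 0.545 and 0.687 and at 1.76, 1.80 and 1.98 (0.77 ± 0.11 on the log2 scale); its control libraries lie under 1 FPKM, and it reached the 1 FPKM line only through arms where it is high, so this difference is a description. In the other tables COX7A2L was at 0.23 ± 0.04 in PSN1 (0.09 and not called under median-ratio scaling), at -0.08 ± 0.04 in SW1990 (adjusted p = 0.12), and Cox7a2l was at -0.16 ± 0.06 in tumours (adjusted p = 0.061).

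Complex V, in contrast, had more falls than rises in SW1990 and KPC cells. Of its nuclear genes 7 rose and 7 fell of 18 in PSN1 (median 0.02; 3 and 11 under median-ratio scaling), 2 rose and 11 fell of 18 in SW1990 (median -0.16), and 2 rose and 7 fell of 17 in KPC cells (median -0.07; 0 and 8 under median-ratio scaling). Over all genes 45.8% rose and 34.6% fell in PSN1, 30.7% and 41.7% in SW1990, and 37.9% and 35.8% in KPC cells. The difference from these shares was not tested. Its sum was 18.3% lower in SW1990, 5.1% lower in KPC cells and 1.4% lower in PSN1, without overlap with control in each. ATP5F1B, the catalytic beta subunit and the most abundant nuclear member in PSN1, was 280, 263 and 262 in SW1990 control and 183, 193 and 199 with RMC-6236 (-0.48 ± 0.03, adjusted p = 2.7e-08). In PSN1 it was 465 ± 3.88 and 455 ± 4.33 (-0.03 ± 0.01, adjusted p = 0.049), a call lost under 8 of the 12 settings that left out 1 library (any but tazemetostat library 1 or 3, RMC-6236 library 2 or combination library 3). That call was also lost without the filter, with scaling to the nuclear-encoded total (-0.01) and with a replicate block. ATP5IF1, the inhibitor protein of the enzyme, rose in both human lines, from 12.6 ± 0.294 to 15.2 ± 0.407 in PSN1 (0.25 ± 0.04) and from 23.7 ± 0.875 to 27.6 ± 2.14 in SW1990 (0.21 ± 0.06).

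The c subunit of complex V, which forms the rotating ring in the membrane, is encoded by a trio of nuclear genes with the same mature protein, ATP5MC1, ATP5MC2 and ATP5MC3 (Atp5g1, Atp5g2 and Atp5g3 in mouse), and their RNAs did not move together. ATP5MC1 had the largest fall of all nuclear members in both human lines. In SW1990 it stood at 31.5, 31.2 and 31.6 in control and 16.2, 14.2 and 16.2 with RMC-6236 (-0.98 ± 0.05, adjusted p = 5.7e-10). In PSN1 it stood at 28.2, 27.8 and 28.2 and at 19.0, 18.1 and 18.3 (-0.58 ± 0.03, adjusted p = 1.2e-09). In KPC cells Atp5g1 was 25.2, 26.8 and 25.5 in control and 21.3, 20.7 and 20.9 (-0.29 ± 0.03, adjusted p = 1.5e-06). No treated library of these cell tables reached a control value. In tumours Atp5g1 was 14.0 ± 0.283 and 15.8 ± 1.43 (0.15 ± 0.07, adjusted p = 0.11).

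ATP5MC2 rose instead, from 34.1 ± 0.964 to 40.6 ± 1.79 in PSN1 (0.24 ± 0.04) and from 19.6 ± 0.882 to 23.8 ± 1.11 in SW1990 (0.27 ± 0.04). Atp5g2, whose promoter above holds the NRF1 core, was 106 ± 1.12 and 111 ± 1.99 in KPC cells (0.07 ± 0.03, adjusted p = 0.031). That call was lost under median-ratio scaling and without control library 1 or 2 or RMC-6236 library 1. In tumours Atp5g2 was 75.0 ± 4.21 and 86.4 ± 9.64 (0.20 ± 0.07, adjusted p = 0.041), a call lost under 7 of 16 settings that left out 1 library (control library 1, 2 or 4, RMC-6236 library 1, 3 or 4, or combination library 3). ATP5MC3 fell in SW1990 from 23.2 ± 0.688 to 18.7 ± 1.02 (-0.30 ± 0.04) and in PSN1 by a log2 change of -0.11 ± 0.04, and Atp5g3 fell in KPC cells from 112 ± 7.99 to 94.7 ± 0.762 (-0.23 ± 0.04).

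The make-up of the c-subunit RNA shifted in the cell tables. ATP5MC1 made up 42.3% ± 0.900 (SD, n = 3) of the summed FPKM of the trio in SW1990 control libraries, 26.7% ± 0.620 with RMC-6236 and 21.2% ± 0.543 with the combination. In PSN1 it made up 32.3% ± 0.465 in control, 22.6% ± 1.04 with RMC-6236 and 23.5% ± 0.339 with the combination, and the last 2 overlapped. In KPC cells Atp5g1 made up 10.6% ± 0.639 in control, 9.24% ± 0.0713 with RMC-6236 and 8.42% ± 0.219 with the combination, and in tumours 9.65% ± 0.626, 9.86% ± 0.443 and 10.1% ± 0.779. The RMC-6236 range lay below the control range in the 3 cell tables and overlapped with it in tumours.

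**Figure D3:**
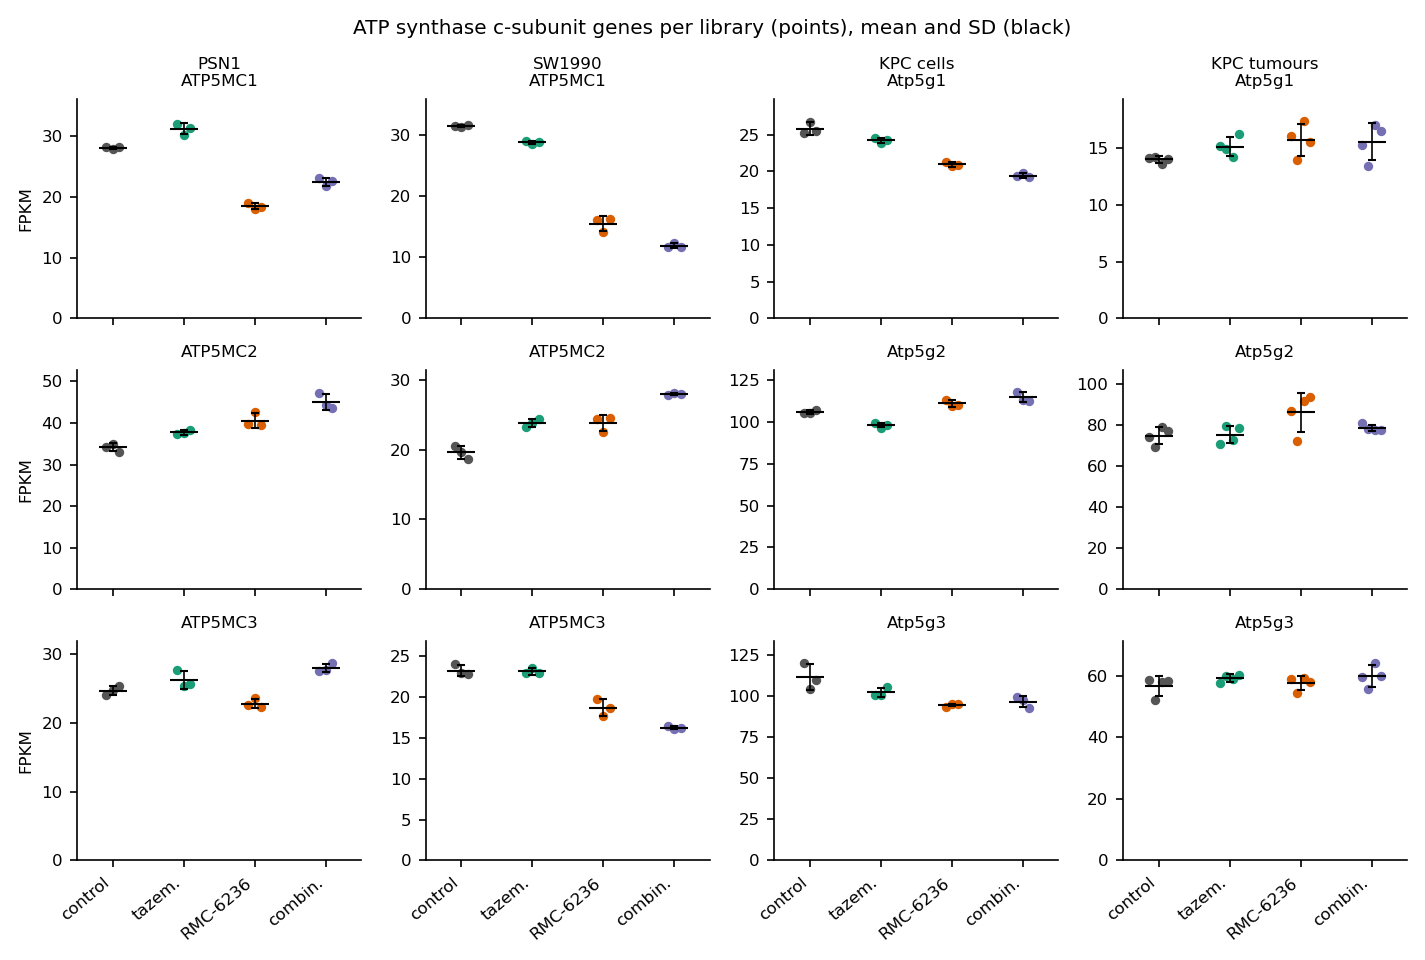
FPKM of the c-subunit genes (rows; ATP5MC1, ATP5MC2 and ATP5MC3, or Atp5g1, Atp5g2 and Atp5g3) for each library by arm in the 4 tables (columns); points are libraries, black marks the mean and SD. ATP5MC1 is at 31.2 to 31.6 in SW1990 control and 14.2 to 16.2 with RMC-6236, while ATP5MC2 is higher with RMC-6236 than in control in both human lines.

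Complex I, the NADH dehydrogenase, split by line. In PSN1 19 of 37 nuclear genes rose and 3 fell (median 0.11; 9 and 10, median -0.02, under median-ratio scaling), and in SW1990 5 rose and 18 fell (median -0.12). In KPC cells 9 rose and 7 fell of 36. Over all genes 45.8% rose and 34.6% fell in PSN1, 30.7% and 41.7% in SW1990, and 37.9% and 35.8% in KPC cells. Among its 7 nuclear core subunits, which carry the flavin and iron-sulfur clusters, 5 rose and 0 fell in PSN1 and 0 rose and 6 fell in SW1990. The core subunits were not counted separately under median-ratio scaling, which took the complex I rises in PSN1 from 19 to 9. NDUFS3, a core subunit, stood at 17.6, 17.8 and 18.1 in SW1990 control and 12.2, 12.4 and 11.4 (-0.54 ± 0.05, adjusted p = 5.7e-07). Its groups did not overlap. The largest nuclear rise in PSN1 was in the accessory subunit NDUFB5, from 5.69 ± 0.173 to 9.61 ± 0.155 (0.66 ± 0.04), and a marked fall was in NDUFS6, from 46.6 ± 0.883 to 36.4 ± 0.855 (-0.35 ± 0.05).

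In KPC cells the accessory subunit Ndufa6 stood at 30.9, 27.2 and 27.0 in control and 43.9, 43.4 and 44.1 with RMC-6236 (0.61 ± 0.06, adjusted p = 3.9e-07), and Ndufv3 went from 14.8 ± 0.464 to 19.1 ± 0.469 (0.35 ± 0.04). Ndufa5 fell from 15.5 ± 1.72 to 10.9 ± 0.415 (-0.47 ± 0.09). Of these, Ndufv3 was also among the members that rose in tumours.

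Complex II, succinate dehydrogenase, is wholly nuclear and doubles as an enzyme of the citric acid cycle. SDHA, its flavoprotein, went up in PSN1 with RMC-6236, from 24.8 ± 0.678 to 29.7 ± 0.921 (0.25 ± 0.03), and down in SW1990, from 11.7 ± 0.918 to 8.20 ± 0.284 (-0.46 ± 0.05). SDHB, the iron-sulfur subunit, fell in both, by a log2 change of -0.17 ± 0.03 in PSN1 and from 24.8 ± 0.685 to 17.0 ± 1.35 in SW1990 (-0.53 ± 0.05). The membrane anchor SDHC rose in PSN1 from 8.81 ± 0.149 to 12.2 ± 0.140 (0.43 ± 0.03) and in KPC cells, as Sdhc, from 46.9 ± 1.54 to 56.1 ± 0.753 (0.25 ± 0.03), and was at -0.03 ± 0.04 in SW1990 (adjusted p = 0.56). SDHD, the other anchor, was at 0.13 ± 0.04 in PSN1, or -0.02 under median-ratio scaling, and fell in SW1990 (-0.18 ± 0.05). The complex II sum was 18.2% lower in SW1990 without overlap.

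Complex III, the cytochrome bc1 complex, held 9 nuclear members in the human lines and 8 in the mouse tables: 3 rose and 1 fell in PSN1 (2 and 4 under median-ratio scaling), 1 and 4 in SW1990, 3 and 1 in KPC cells, and 2 and 1 in tumours. UQCRB, which sits at the ubiquinone pocket, rose in PSN1 (11.1 ± 0.605 to 14.6 ± 0.334, 0.37 ± 0.04), in SW1990 (10.2 ± 0.646 to 11.9 ± 0.451, 0.20 ± 0.05) and, as Uqcrb, in tumours (27.9 ± 2.19 to 33.8 ± 1.76, 0.27 ± 0.09, adjusted p = 0.025, a call lost without control library 1, 2 or 4 or RMC-6236 library 3 or 4). Uqcrq, a small subunit beside cytochrome b, fell in KPC cells from 45.4 ± 5.37 to 33.4 ± 2.57 (-0.43 ± 0.09) and rose in tumours from 25.9 ± 2.85 to 32.1 ± 0.707 (0.31 ± 0.09). UQCRH went from 155 ± 0.996 to 147 ± 2.49 in PSN1 (-0.08 ± 0.02); its near-copy UQCRHL was listed at 3.25 ± 0.456 and 3.27 ± 0.161.

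**Figure D4:**
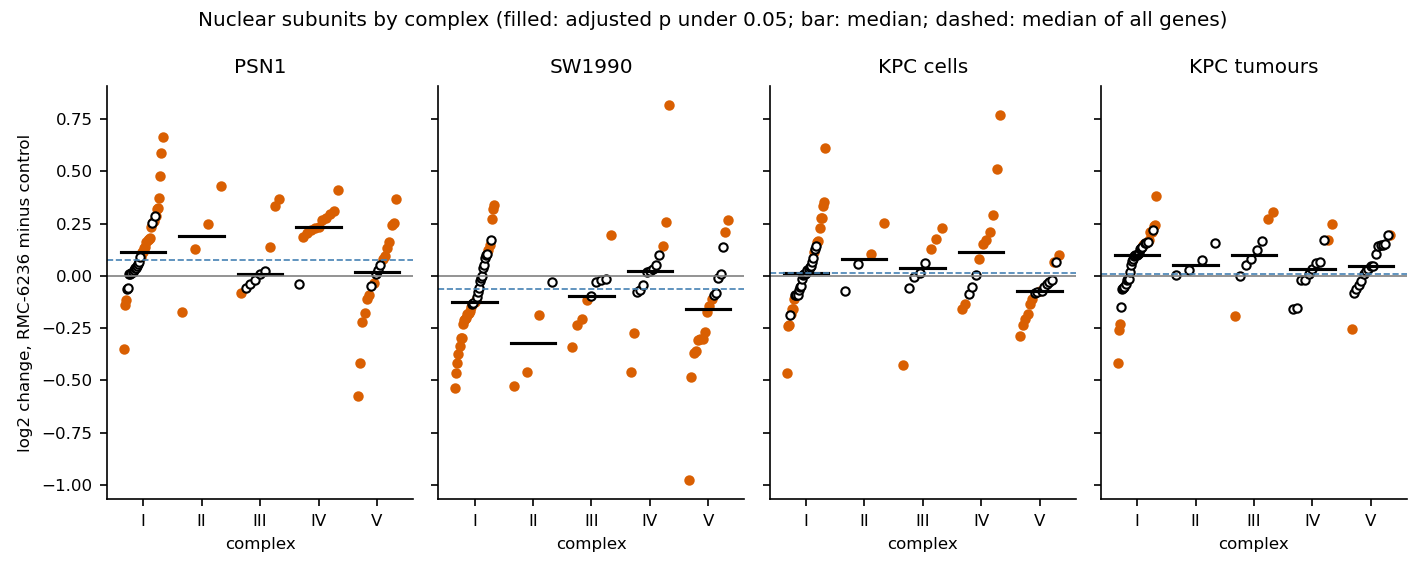
Log2 change of each nuclear member, RMC-6236 minus control, by complex I to V in each table (panels); filled points had an adjusted p under 0.05, bars mark medians and the dashed line marks the median of all genes tested. Complex IV has a median of 0.24 in PSN1 (0.09 under median-ratio scaling) and 0.12 in KPC cells (Cox7a1 included), and complex V has a median of -0.16 in SW1990; under median-ratio scaling in PSN1 the complex V median moves from 0.02 to -0.13 and that of complex I from 0.11 to -0.02.

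Compared member by member, the human lines shared 10 nuclear genes that rose with RMC-6236 (23.8% of the 42 in PSN1, 90.9% of the 11 in SW1990) and 9 that fell (75% of 12 and 23.7% of 38). That is 12.7% and 11.4% of the 79 in both tables, against 23.4% and 29.2% of the 11547 genes tested in both. Those that fell in both were ATP5F1B, ATP5F1D, ATP5MC1, ATP5MC3, ATP5MK, NDUFB10, NDUFV3, SDHB and UQCRH. The PSN1 call of ATP5F1B was lost under several settings, as given above. In 18 nuclear genes the call was higher in PSN1 and lower in SW1990, SDHA and COX8A among them, and in 0 the reverse (22.8% and 0% of the 79; 7.32% and 1.89% over all genes). These counts depend on the PSN1 scaling, since nuclear rises there went from 42 to 23 under median-ratio scaling. Only some of the 18 were checked singly under that scaling. Of those, COX8A, NDUFA10 and NDUFA4 were then not called in PSN1, and SDHD turned to -0.02. The rest of the 18 were not checked singly, and the counts by complex above show further losses among the PSN1 rises. The 4 mitochondrial genes lower in PSN1 and higher in SW1990 were 30.8% of the 13. KPC cells and tumours shared 6 nuclear rises (26.1% of 23 and 42.9% of 14) and 3 falls (17.6% of 17 and 60% of 5), 7.89% and 3.95% of the 76 in both, against 10.3% and 11.4% of 12068 genes. The falls were Atp5md, Ndufa4 and Ndufv1.

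In tumours RMC-6236 gave 9 higher and 3 lower of 36 nuclear complex I genes (median 0.10; over all genes 20.3% were higher and 19.2% lower) and 0 of 4 called in complex II. Ndufa1, a small membrane subunit, stood at 17.7, 15.9, 18.0 and 16.4 in control and 22.0, 22.2, 23.5 and 21.8 with RMC-6236 (0.38 ± 0.08, adjusted p = 0.0024). Ndufv1, the core subunit that takes electrons from NADH, stood at 42.9, 40.1, 41.8 and 42.1 and at 35.3, 31.9, 36.1 and 35.9 (-0.26 ± 0.06, adjusted p = 0.0024). Groups did not overlap for either gene, and with the combination Ndufa1 was 28.9 ± 3.31 and Ndufv1 30.2 ± 2.54. Ndufv1 also fell in KPC cells, from 51.6 ± 0.827 to 46.2 ± 0.464 (-0.16 ± 0.02). Ndufa4, counted here with complex I by its symbol although the protein is known to sit with complex IV, went from 37.9 ± 3.64 to 28.1 ± 2.47 (-0.42 ± 0.14, adjusted p = 0.026), a call lost without control library 1 or 3 or RMC-6236 library 1 or 4, and Ndufa9 fell by a log2 change of -0.23 ± 0.07 (adjusted p = 0.015).

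The tumour libraries also differed in markers of other cells. The summed FPKM of 7 fibroblast markers (Col1a1, Dcn and others, 7 of 7 above 1 FPKM) ranged from 843 to 1158 in control and from 2948 to 3930 with RMC-6236, and that of 7 macrophage markers from 423 to 544 and from 1081 to 1548. Of the macrophage genes, Lyz2 alone was at 215 to 282 and 754 to 1026, while Mrc1 was lower with RMC-6236 (15.5 to 19.3 and 11.8 to 15.2). The sum of 5 epithelial markers, the keratins Krt8, Krt18 and Krt19 with Epcam and Cdh1, ranged from 3063 to 3784 and from 1410 to 1947, but Epcam alone overlapped (67.9 to 154 and 76.8 to 136). With the combination, 8 acinar markers summed to between 83.9 and 2967, against 12 to 43 in control, and 5 erythroid markers to between 69.9 and 177, against 29.6 to 46.6. Skeletal muscle markers were at or near 0 (0 of 7 with a mean above 1 FPKM in any arm; Ckm, Pvalb and Myh1 listed at 0 in all control libraries), and 5 adipocyte markers summed to between 0.694 and 56.4 with the combination, against 1.79 to 3.03 in control. In bulk tissue fewer cells of a type and less RNA per cell cannot be told apart. The part of these cell types in the tumour results of the oxidative phosphorylation genes was not tested.

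Tazemetostat alone moved fewer members. Of the nuclear genes 22 rose and 13 fell in PSN1 (background 23.6% higher and 22.5% lower), 3 rose and 18 fell in SW1990 (23.1% and 14.4%), and 2 rose and 21 fell in KPC cells (18.6% and 25.5%). In tumours limma called 0 members, as it called 0 of all genes (0% in each direction), with 3 nuclear and 0 mitochondrial members at an unadjusted p under 0.05. Under median-ratio scaling the split of calls over all genes went from 51.2 to 36.8% higher in PSN1 and from 61.7 to 40.2% in SW1990, and the nuclear counts became 14 higher and 22 lower in PSN1 and 29 lower in SW1990. The 18 lower in SW1990 were 11 without tazemetostat library 1, and the 3 higher were 5 without control library 3. In KPC cells the 2 higher were 0 to 4 with a library left out: 0 without control library 1 or 3, tazemetostat library 2, RMC-6236 library 1 or combination library 3, 1 without tazemetostat library 1, RMC-6236 library 2 or 3 or combination library 1, and 4 without tazemetostat library 3.

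SDHA had the largest fall with tazemetostat in both human lines. In PSN1 it stood at 24.1, 24.8 and 25.5 in control and 17.4, 18.3 and 17.9 with tazemetostat (-0.45 ± 0.03, adjusted p = 8.0e-08). In SW1990 it stood at 12.7, 11.5 and 10.9 and at 7.84, 8.44 and 7.84 (-0.48 ± 0.05, adjusted p = 1.5e-05). In KPC cells Sdha went from 40.3 ± 0.214 to 35.1 ± 0.349 (-0.20 ± 0.02), and in tumours it was 29.7 ± 0.941 and 29.3 ± 0.713 (adjusted p = 0.95). The cell groups did not overlap. Complex I core subunits fell in the cell tables too, 3 of 7 in PSN1, 3 of 7 in SW1990 and 6 of 7 in KPC cells, with 0 higher in each. In KPC cells Ndufs1, the largest core subunit, went from 10.5 ± 0.449 to 8.77 ± 0.539 (-0.23 ± 0.05).

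Complex IV in PSN1 went up with tazemetostat: 9 of 11 nuclear genes rose and 0 fell (5 and 2 under median-ratio scaling). COX7C, a small subunit, went from 39.0 ± 1.01 to 49.1 ± 1.58 (0.32 ± 0.03). ATP5IF1 fell in PSN1 (-0.26 ± 0.04) and in SW1990 (-0.21 ± 0.06, a call lost without tazemetostat library 1), the reverse of its direction with RMC-6236.

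Among mitochondrial genes tazemetostat gave 5 higher and 3 lower in PSN1, 3 and 3 in SW1990, 0 and 6 in KPC cells and 0 and 0 in tumours. MT-ND1 fell in PSN1 from 3781 ± 151 to 3333 ± 139 (-0.18 ± 0.04) and in SW1990 from 4036 ± 239 to 3182 ± 178 (-0.34 ± 0.05), and MT-ND2 fell by -0.11 ± 0.02 and -0.15 ± 0.04. MT-ATP6 rose in PSN1 (0.18 ± 0.03) and in SW1990 (0.17 ± 0.05), and MT-CO3, a structural subunit of complex IV, rose by 0.26 ± 0.03 and 0.11 ± 0.04; under median-ratio scaling neither was called in SW1990, and the MT-CO3 call there was lost without any 1 of 10 libraries. The 3 higher in SW1990 were 1 without control library 2 or 3 or tazemetostat library 3. The 6 lower in KPC cells were 2 without control library 1, and 1 without control library 3 or tazemetostat library 1.

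Adding tazemetostat to RMC-6236 gave mostly rises in PSN1 and mostly falls in SW1990 among nuclear members. Against RMC-6236 alone, 36 nuclear members were higher and 11 lower in PSN1 (background 24.1% and 30.1%), and 1 was higher and 32 lower in SW1990 (29.8% and 18.3%; 0 and 50 under median-ratio scaling, where the share of higher calls over all genes went from 62.0 to 41.0%). In KPC cells 15 were higher and 9 lower (20.3% and 28.5%), and in tumours 2 and 4 (5.16% and 2.97%). The mitochondrial counts were 8 and 1 in PSN1, 4 and 3 in SW1990, 0 and 7 in KPC cells and 1 and 0 in tumours. The 1 higher nuclear gene in SW1990 was ATP5MC2 (0.23 ± 0.04, 0.12 and not called under median-ratio scaling), and 3 were higher without RMC-6236 library 1. In KPC cells the 15 were 9 without combination library 1, and the 7 mitochondrial genes were 4 without RMC-6236 library 1 or 2 or combination library 1 or 2. The 1 lower mitochondrial gene in PSN1, MT-ND5 (-0.17 ± 0.03), was joined by MT-ND6 without control library 2 or 3 or combination library 2, which made 2.

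The tumour counts of this comparison rested on single libraries. The 4 lower nuclear genes were 0 without RMC-6236 library 1, 3 or 4 or combination library 4, 1 without combination library 1 or 2, 2 without combination library 3, and 8 without RMC-6236 library 2. The 2 higher were 1 without RMC-6236 library 4 or combination library 4 and 0 without combination library 3. The 1 mitochondrial gene, mt-Nd4l (0.35 ± 0.09, adjusted p = 0.021), was not called without RMC-6236 library 2 or combination library 1 or 3. Over all genes the share of higher calls went from 63.5 to 51.4% under median-ratio scaling.

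In SW1990 the second drug took complex V lower again, with 13 of 18 nuclear genes lower than with RMC-6236 alone and 1 higher. ATP5MC1 was 11.6, 12.3 and 11.7 with the combination, below all RMC-6236 libraries (-0.35 ± 0.05, adjusted p = 3.8e-05), and ATP5F1B was 156 ± 1.82 (-0.29 ± 0.03). NDUFS6, a complex I subunit that holds a zinc, was 27.4 ± 3.37 with RMC-6236 and 19.2 ± 0.781 with the combination (-0.49 ± 0.07). The muscle-type COX7A1 was 3.65 ± 0.487 and 1.98 ± 0.212 (-0.64 ± 0.09). In PSN1, in contrast, 9 of 11 complex IV genes rose further and 0 fell (8 and 0 under median-ratio scaling). COX7C was 47.7, 47.8 and 46.8 with RMC-6236 and 62.2, 62.4 and 64.0 with the combination (0.40 ± 0.03, adjusted p = 5.5e-08), without overlap. SDHA fell on this comparison in both lines, from 29.7 ± 0.921 to 21.1 ± 0.0981 in PSN1 (-0.47 ± 0.03) and by -0.20 ± 0.05 in SW1990.

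Against control, the combination left 44 nuclear members higher and 9 lower in PSN1 (background 45.5% and 37.1%), 6 and 53 in SW1990 (38.3% and 40.9%), 31 and 17 in KPC cells (37.8% and 38.7%) and 24 and 7 in tumours (26.7% and 25.7%). The mitochondrial counts were 10 and 1, 12 and 1, 10 and 1, and 5 and 0. The comparison shares its control libraries with those of the single drugs. For PSN1 the median of all genes went from 0.07 to -0.06 and the share of higher calls from 55.1 to 45.1% under median-ratio scaling, and the nuclear members lower were then 24 and the mitochondrial 6 higher and 2 lower. In SW1990 the falls covered complexes I (22 of 37), II (3 of 4), III (7 of 9), IV (5 of 13) and V (16 of 18), while 12 of the 13 mitochondrial genes rose and MT-ND1 fell (-0.22 ± 0.05). ATP5MC1 reached -1.33 ± 0.05 there (adjusted p = 1.3e-11), from 31.4 ± 0.178 to 11.9 ± 0.375. In PSN1 10 of 11 complex IV genes were higher (10 higher and 1 lower under median-ratio scaling), with COX7C at 0.67 ± 0.03, and UQCRB was 11.1 ± 0.605 in control and 18.5 ± 0.0235 with the combination (0.68 ± 0.04).

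In KPC cells 9 of 12 complex IV genes, a set that includes Cox7a1, were higher and 1 lower, and Cox7a2l stood at 156, 156 and 148 (0.66 ± 0.03, adjusted p = 4.5e-10). In tumours the same gene went down, from 109 ± 1.68 to 82.6 ± 4.01 (-0.40 ± 0.06, adjusted p = 8.7e-05). The 5 mitochondrial genes that rose in tumours, mt-Cytb, mt-Nd4, mt-Nd4l, mt-Nd5 and mt-Nd6, all rose in KPC cells too (50% of the 10 there), with mt-Nd5 at 0.69 ± 0.10 and mt-Nd6 at 0.77 ± 0.12 in tumours. In KPC cells mt-Nd5 was 1091 ± 70.8 with the combination, above control and below RMC-6236 alone (-0.20 ± 0.04).

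The interaction of the drugs, the log2 change of the combination beyond the sum of the single changes, was called in 7 nuclear and 5 mitochondrial genes in PSN1, all higher (background 9.8% higher and 13.8% lower), in 2 higher and 6 lower nuclear genes in SW1990 (9.03% and 6.19%), in 12 higher nuclear genes in KPC cells (12.1% and 13.7%) and in 0 members in tumours (1.49% and 0.369%). Limma gave 5 nuclear members and 1 mitochondrial member of tumours at an unadjusted p under 0.05. The 5 in PSN1 were MT-ND2, MT-CYB, MT-CO2, MT-CO3 and MT-ATP6 (0.16 to 0.19), 3 without RMC-6236 library 2. Under median-ratio scaling the share of higher interaction calls over all genes in PSN1 went from 41.5 to 59.1%, and the nuclear members called were 17. The largest called value among SW1990 members was that of COX6B2 (-0.43 ± 0.06, adjusted p = 5.0e-04), at 7.67 ± 0.146 with tazemetostat, 11.8 ± 0.550 with RMC-6236 and 10.3 ± 0.371 with both. The 8 nuclear genes in SW1990 were 3 without control library 2, 1 without tazemetostat library 1 or 3, 4 without tazemetostat library 2, 5 without RMC-6236 library 3, and 3, 4 and 2 without combination library 1, 2 or 3.

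Genes of the mitochondrial ribosome and of mitochondrial gene expression had more falls than rises in each cell table with RMC-6236. Of 78 mitochondrial ribosomal protein genes, 8 rose and 57 fell in PSN1 (median -0.27), 1 and 69 in SW1990 (-0.46), 2 and 57 in KPC cells (-0.26), and 11 and 14 in tumours (0.02). Under median-ratio scaling these were 3 and 65, 1 and 68, 2 and 58, and 11 and 16. Without that scaling, 34.6% of all genes fell in PSN1, 41.7% in SW1990, 35.8% in KPC cells and 19.2% in tumours. MRPL12, a ribosomal protein that also binds the mitochondrial RNA polymerase, went from 99.9 ± 2.66 to 59.3 ± 1.62 FPKM in PSN1 (-0.74 ± 0.04) and from 97.9 ± 4.98 to 53.6 ± 1.05 in SW1990 (-0.86 ± 0.04), and Mrpl12 from 90.9 ± 1.54 to 61.2 ± 0.721 in KPC cells (-0.56 ± 0.05). These lists were chosen with earlier results of these data known.

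Genes of mitochondrial transcription, RNA handling and DNA copying gave 3 higher and 19 lower of 27 in PSN1 (median -0.49), 1 and 23 of 27 in SW1990 (-0.64), 3 and 15 of 26 in KPC cells (-0.23) and 4 and 5 of 26 in tumours (-0.02). TFAM, the transcription and packaging factor of mitochondrial DNA, went from 14.0 ± 0.441 to 6.91 ± 0.444 in PSN1 (-0.93 ± 0.05), from 16.8 ± 1.12 to 8.46 ± 1.08 in SW1990 (-0.91 ± 0.07) and, as Tfam, from 8.17 ± 0.423 to 5.01 ± 0.437 in KPC cells (-0.61 ± 0.06). In tumours Tfam was at -0.19 ± 0.07 (adjusted p = 0.052). POLRMT, the polymerase, fell by -0.74 ± 0.04 in PSN1 and -0.84 ± 0.06 in SW1990, and Polrmt by -0.24 ± 0.06 in KPC cells. TWNK, the helicase, fell by -1.24 ± 0.07 and -1.11 ± 0.07 in the human lines, and Twnk by -0.29 ± 0.04 in KPC cells and -0.29 ± 0.10 in tumours. In SW1990 and KPC cells RNA of most mitochondrial genes was higher in the same libraries in which RNA of these factors was lower.

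Assembly factors gave 14 higher and 20 lower of 45 in PSN1 (median -0.06; 7 and 24 under median-ratio scaling), 2 and 29 of 44 in SW1990 (-0.26), 9 and 15 of 42 in KPC cells (-0.04) and 11 and 4 of 42 in tumours (0.11). NDUFAF4, needed to build complex I, fell by -1.06 ± 0.05 in PSN1 and -1.32 ± 0.08 in SW1990, and Ndufaf4 by -0.49 ± 0.07 in KPC cells. COA7, a complex IV assembly protein, fell by -0.99 ± 0.03 and -1.51 ± 0.06 in the human lines and Coa7 by -0.21 ± 0.08 in KPC cells, and Coa7 rose by 0.27 ± 0.08 in tumours. The electron carrier cytochrome c, CYCS, went from 63.0 ± 1.34 to 30.9 ± 2.04 in PSN1 (-1.01 ± 0.04) and from 29.7 ± 2.67 to 14.0 ± 1.35 in SW1990 (-1.03 ± 0.07). Cycs went from 27.2 ± 1.94 to 14.0 ± 0.541 in KPC cells (-0.91 ± 0.05) and was at -0.12 ± 0.11 in tumours (adjusted p = 0.41). Citric acid cycle genes gave 8 higher and 4 lower of 14 in PSN1 (5 and 6 under median-ratio scaling), 1 and 9 of 14 in SW1990, 3 and 6 of 13 in KPC cells and 3 and 2 of 13 in tumours. For both lists the all-gene shares were 45.8% higher and 34.6% lower in PSN1, and 30.7% and 41.7% in SW1990. They were 37.9% and 35.8% in KPC cells and 20.3% and 19.2% in tumours.

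**Figure D5:**
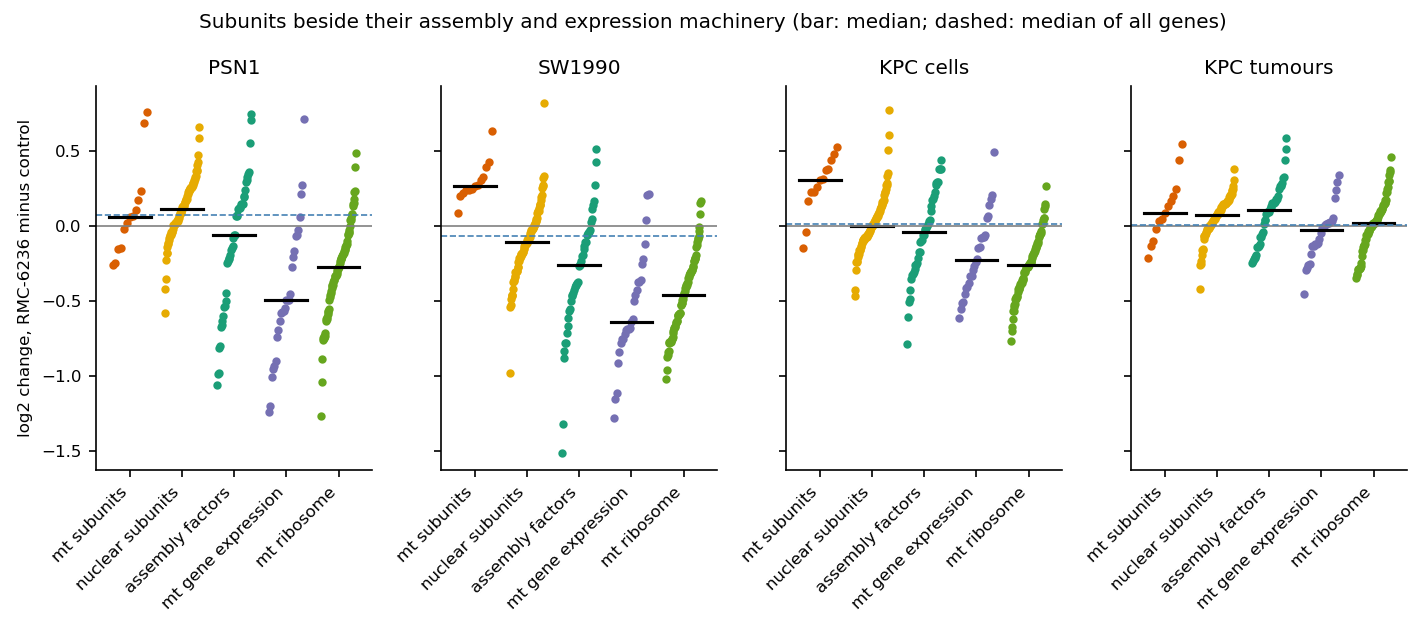
Log2 change, RMC-6236 minus control, of mitochondrial subunits, nuclear subunits, assembly factors, mitochondrial gene expression factors and mitochondrial ribosomal proteins in each table (panels); each point is a gene, bars mark medians and the dashed line marks the median of all genes tested. Ribosomal proteins have medians of -0.27, -0.46 and -0.26 in the cell tables and 0.02 in tumours; under median-ratio scaling in PSN1 the median of nuclear subunits turns from 0.11 to -0.02, that of mitochondrial subunits from 0.06 to -0.09.

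Among regulators of these genes, 3 rose and 5 fell of 10 in PSN1 (PPARGC1A, described below, among the 3), 1 and 6 of 8 in SW1990, 2 and 6 of 8 in KPC cells and 0 and 3 of 7 in tumours. Over all genes 34.6% fell in PSN1, 41.7% in SW1990, 35.8% in KPC cells and 19.2% in tumours. MYC fell by -1.56 ± 0.02 in PSN1 and -1.61 ± 0.05 in SW1990, and Myc by -1.10 ± 0.04 in KPC cells and -1.24 ± 0.17 in tumours. PPRC1, a coactivator of the PGC-1 family, fell by -1.33 ± 0.05 and -1.31 ± 0.05, and Pprc1 by -1.0 ± 0.05 and -0.58 ± 0.14. PPARGC1A, the founding member of that family and an inducer of mitochondrial genes, was at 0.0827 ± 0.0103 FPKM in PSN1 control libraries and 3.41 ± 0.193 with RMC-6236 (2.02 ± 0.05), where it passed the filter on low values only through arms where it is high, so this is a description. Ppargc1a went up in KPC cells from 1.25 ± 0.0517 to 5.58 ± 0.131 (1.55 ± 0.04). The gene was too low to be tested in SW1990 (at most 0.103 FPKM in these arms) and in tumours (at most 0.447 in these arms).

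The 2 ribosomal RNAs of the mitochondrial DNA, which lie upstream of MT-ND1 on the same strand, are not oxidative phosphorylation members, and the libraries were made with an mRNA kit, so their levels are those of RNA that such a kit keeps. MT-RNR2 went from 1188 ± 19.7 to 3007 ± 39.4 FPKM in PSN1 with RMC-6236 (1.34 ± 0.01), more than any mitochondrial subunit gene there, and from 3837 ± 137 to 4623 ± 53.8 in SW1990 (0.27 ± 0.03). MT-RNR1 rose in PSN1 (214 ± 3.25 to 358 ± 19.3, 0.74 ± 0.04) and fell in SW1990 (870 ± 41.6 to 729 ± 25.1, -0.25 ± 0.04). With the combination MT-RNR1 in SW1990 was 1314 ± 40.1 (0.85 ± 0.04 against RMC-6236). In KPC cells mt-Rnr1 fell (180 ± 5.02 to 138 ± 5.78, -0.38 ± 0.03), and mt-Rnr2 was at 0.11 ± 0.06 (adjusted p = 0.085).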

How the data were processed

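Polyadenylated RNA libraries from a stranded mRNA kit were sequenced, per the labels' protocols. StringTie 1.3.1c, STAR 2.5.3a and FastQC 0.11.2 appear in the submitters' processing notes, with hg38 for every sample; the build used for mouse and the strand setting of counting are not given in the sources used here. The authors deposited 1 FPKM table per cell line or tumour set; their low values gave no whole-read steps, so depth and counting error are unknown.

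From these values log2(FPKM + 1) was tested with limma 3.58.1 (R 4.3.3, statmod 1.5.0; trend and robust options), with 1 mean per arm over the 4 arms of a table, on genes at 1 FPKM or more in at least 3 libraries (cells) or 4 (tumours). In all, 5 contrasts were made per table: each drug against control, the combination against RMC-6236 and against control, and the interaction. Two-sided p-values were adjusted by Benjamini-Hochberg over all tested genes of a table and contrast, with a threshold of 0.05. Values in text are mean ± SD for levels and estimate ± SE for log2 changes. Sums, shares and tables used Python 3.11.15, pandas 2.3.3 and numpy 2.4.6. On simulated data, a change of 1 log2 unit was recovered in 100, 100, 100 and 99 of 100 genes for RMC-6236 against control (PSN1, SW1990, KPC cells, tumours; 11974, 11872, 11949 and 13046 genes tested), and a change of 0.5 in 98, 94, 99 and 88. False calls numbered 9, 18, 8 and 11. The changed genes all had control levels far above the filter line. Smaller changes, like many reported here, and lower genes were not tried.

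The members and lists were chosen with earlier results of these data known. Named genes are the 13 mitochondrial members, SDHA to SDHD, the 4 largest called nuclear rises and falls with RMC-6236 (2 and 2 for the other contrasts, 2 for the interaction), c-subunit genes, cytochrome oxidase paralogs, UQCRH with UQCRHL, ATP5IF1, the most abundant nuclear member of each complex, and up to 3 genes per other list. Genes named beyond this, or in a second table beside the one that chose them, were chosen after their values were seen. The values of 1 nuclear member are not reported here. Alternatives were a pseudocount of 0.1, no filter, median-ratio scaling, scaling to the nuclear-encoded total, a replicate block, a 5 FPKM member minimum and leaving out each library. Promoters came from RefSeq, matched by symbol.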

Additional observations from a re-analysis of the deposited data

Results flagged for a closer look

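In tumours, with 4 libraries per arm, 14 of 168 groups of values held 1 library far from the other 3 by Dixon's test, which flags about 1 in 20 groups by chance. Tazemetostat library 3 was low for mt-Nd5 (616 FPKM, others 656 to 661), mt-Nd6 (110, others 120 to 121), mt-Co2 (2280, others 2712 to 2785) and Cox4i1 (90.9, others 94.7 to 95.3). For mt-Nd2, RMC-6236 library 1 was high (2499, others 1428 to 1574), as was control library 3 (1670, others 1347 to 1374). For mt-Nd3, tazemetostat library 4 was high (348, others 292 to 297).

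Among nuclear genes in tumours, control library 1 was high for Atp5a1 (147, others 129 to 130). Control library 2 was low for Atp5g3 (51.9, others 57.8 to 58.7) and Sdhb (23.3, others 25.9 to 26.4). RMC-6236 library 2 was low for Uqcrh (37.9, others 46.1 to 46.5). Combination library 1 was high for Atp5g2 (81.0, others 77.9 to 78.1), and combination library 2 was low for Cox4i1 (76.3, others 88.3 to 90.4) and Uqcrq (28.3, others 35.0 to 35.2).

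In 29 cases every treated library of one table lay on one side of its reference arm and every treated library of the other table on the other side; the difference itself was not tested. These were among 248 pairs of a gene and a comparison looked at, and over all genes tested in both tables between 1.43 and 14.2% of genes per comparison met the same condition. In 22 of the 29 limma called both changes; the 7 with 1 change not called have its adjusted p given here. With RMC-6236 against control the log2 changes in PSN1 and SW1990 were 0.20 and -0.27 for COX8A, 0.25 and -0.46 for SDHA, and 0.13 and -0.18 for SDHD. They were -0.14 and 0.22 for MT-ATP6, -0.24 and 0.27 for MT-ATP8, -0.26 and 0.33 for MT-ND2, and -0.15 and 0.63 for MT-ND3. In PSN1 the median-ratio scaling turned SDHD to -0.02, and COX8A was at 0.05 and not called.

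With tazemetostat the changes in PSN1 and SW1990 were 0.15 and -0.12 (adjusted p = 0.0532) for ATP5MC1, 0.17 and -0.11 for COX6A1, and 0.21 and -0.12 (0.188) for NDUFS6. For the combination against RMC-6236 they were 0.27 and -0.35 for ATP5MC1, 0.28 and -0.19 for ATP5MC3, 0.13 and -0.07 (0.116) for COX8A, and 0.15 and -0.49 for NDUFS6. In the same comparison they were 0.080 and -0.14 for MT-ND2, -0.17 and 0.23 for MT-ND5, and -0.14 (0.0525) and 0.23 for MT-ND6. For the combination against control they were 0.17 and -0.49 for ATP5MC3, 0.31 and -0.12 for COX4I1, 0.25 and -0.14 for COX7A2L, 0.34 and -0.34 for COX8A, and -0.18 and 0.18 for MT-ND2. Under median-ratio scaling this ATP5MC3 change in PSN1 was 0.02 and not called. Against RMC-6236, COX8A in PSN1 (0.13) and MT-ND5 in SW1990 (0.12) lost their calls, and COX8A in SW1990 (-0.18) gained one. ATP5MC1 in SW1990 with tazemetostat (-0.21) also gained a call.

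Between KPC cells and tumours, the changes with RMC-6236 were 0.51 and -0.16 (adjusted p = 0.0615) for Cox7a2l and -0.43 and 0.31 for Uqcrq. For the combination against RMC-6236 they were -0.21 (0.0558) and 0.35 for mt-Nd4l. For the combination against control they were 0.66 and -0.40 for Cox7a2l, -0.21 and 0.22 for Sdhb, 0.25 and -0.12 (0.0773) for Sdhc, and -0.46 and 0.36 for Uqcrq.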

How the results depend on the processing

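FPKM tables carry no depth, so precision rests on 3 or 4 libraries per arm. Single members kept their direction and side of the threshold in 798 of 800 cases with a pseudocount of 0.1, 756 without the filter, 764 with nuclear-total scaling, 785 with a replicate block and 723 with median-ratio scaling, and, with a library left out, in 9977 cases against 316 that lost and 87 that gained a call. Causes of the changes below were not tested. Same-numbered libraries deviated together (r over 0.1) in 2 of 18 PSN1 pairs, 3 of 18 SW1990 pairs, 1 of 18 KPC cell pairs and 4 of 24 tumour pairs, so the numbers were not taken to pair samples. With the replicate block, PSN1 had 2 mitochondrial genes lower and SW1990 2 nuclear genes higher for the combination against RMC-6236, and KPC cells had 1 nuclear and 1 mitochondrial gene higher with tazemetostat.

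With median-ratio scaling, PSN1 with RMC-6236 had 23 nuclear genes higher and 27 lower (median -0.024) and 3 mitochondrial higher (median -0.092), with MT-CYB at -0.13, MT-ND1 at -0.042 and SDHD at -0.020. PSN1 with tazemetostat had 14 nuclear higher and 22 lower (median -0.0064) and 3 mitochondrial higher (median 0.0037). PSN1 with the combination against control had 24 nuclear lower (median 0.0080) and 6 mitochondrial higher and 2 lower (median 0.053), with ATP5IF1 at -0.14, MT-ND1 at -0.11 and MT-ND4 at -0.0052, and 17 nuclear interaction calls. SW1990 with tazemetostat had 29 nuclear lower (median -0.14) and 0 mitochondrial higher (median -0.036). For the combination against RMC-6236 SW1990 had 0 nuclear higher and 50 lower (median -0.22) and 2 mitochondrial higher (median -0.026); against control its medians were -0.31 and 0.29, and 4 nuclear interactions were called. Tumours had 7 nuclear genes lower for the combination against RMC-6236 and 12 against control.

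With nuclear-total scaling, PSN1 had 2 mitochondrial genes lower for the combination against RMC-6236, the SW1990 nuclear median with RMC-6236 was -0.045, and KPC cells had 0 mitochondrial lower with RMC-6236 and 1 nuclear higher with tazemetostat. Without the filter there were 3 mitochondrial interactions in PSN1, and 1 mitochondrial gene higher with tazemetostat and 4 nuclear interactions in SW1990. KPC cells then had 0 mitochondrial lower with RMC-6236, 0 nuclear higher and 3 mitochondrial lower with tazemetostat, 4 mitochondrial lower for the combination against RMC-6236 and 6 nuclear interactions, and tumours 6 nuclear higher and 3 lower with RMC-6236.

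With each library left out in turn, counts in KPC cells ranged from 0 to 1 mitochondrial lower with RMC-6236, 4 to 8 mitochondrial lower and 9 to 16 nuclear higher for the combination against RMC-6236, and 0 to 1 mitochondrial higher, 1 to 7 mitochondrial lower and 0 to 4 nuclear higher with tazemetostat. In tumours they ranged from 3 to 22 nuclear higher and 3 to 6 lower with RMC-6236, 0 to 1 mitochondrial higher, 0 to 3 nuclear higher and 0 to 8 lower for the combination against RMC-6236, and 0 to 1 nuclear interactions. In PSN1 the mitochondrial median ranged from 0.0091 to 0.090 with RMC-6236 and from 0.15 to 0.21 for the combination against it, with 1 to 2 mitochondrial lower, and 3 to 5 mitochondrial interactions. In SW1990 there were 1 to 3 nuclear higher for the combination against RMC-6236, 0 to 1 mitochondrial and 1 to 10 nuclear interactions, and 1 to 4 mitochondrial higher, 2 to 5 nuclear higher and 11 to 24 nuclear lower with tazemetostat.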
